A study of Mus musculus with 6 samples.

Results

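Some high-confidence binding sites of SP1 lie where the ends of neighbouring genes meet. They were taken as the sites whose midpoint lay within 2000 bp of an end (start or far end) of each of 2 or more RefSeq protein-coding genes, and 248 of 9001 listed sites (2.76%) met this rule. Position alone chose them from the listed sites, and no accessibility value was used at that step. How the listed sites themselves were chosen is not stated in the sources used. A further 1592 sites lay within 2000 bp of the ends of 1 gene only and served as the comparison, so that shared sites made up 13.5% of the 1840 sites near gene ends. The 248 sites touched 353 genes in 184 sets. Of these sites, 242 lay near 2 genes and 6 near 3 genes, with 112 on chromosome 1, 121 on chromosome 10 and 15 on the listed part of chromosome 11, which ends at position 20195189.

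ATAC-seq, which reads open chromatin by where the Tn5 transposase can insert adapters, compared mouse R1 embryonic stem cells (ESC, 3 libraries) with neural progenitor cells labelled with the same strain name R1 (NPC, 3 libraries). The labels name no treatment or genetic change in either cell type, and do not tell if replicate libraries were separate cultures. The values are those of the authors' own comparison at each 500-bp site: a mean signal (normalized count averaged over libraries), a log2 fold change of NPC over ESC with its standard error (SE), and an adjusted p-value. No values per library were in that table, so the depth of a library and the spread between libraries are given only through these SEs. A site was called when its adjusted p-value was below 0.05, and the sign of its fold change made it a rise or a fall.

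SP1 is a transcription factor of the zinc-finger class whose target is the GC box, a short motif common in the CpG-rich promoters of widely expressed genes. Where genes start back to back on opposite strands, the stretch between their starts can serve as a bidirectional promoter, and such head-to-head pairs often include genes for DNA repair, mitochondria and RNA processing. Pairs can also lie head to tail, with the far end of one gene close to the start of the next, or tail to tail, with only far ends in reach.

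The cell type labels were checked on marker genes, using listed sites whose nearest gene end was that of a marker gene, within 50000 bp. Sites near 8 pluripotency genes, such as Nodal and Prdm14, fell at 24 of 35 and rose at 2, and sites near 3 neural progenitor genes (Fabp7, Meis1 and Pou3f3) rose at 9 of 14 and fell at 1. Sites near neuronal genes rose at 5 of 12 and fell at 3, those near mesenchymal genes rose at 2 of 15 and fell at 9, those near the glial gene Gja1 rose at 1 of 7 and fell at 4, and those near early mesoderm and endoderm genes rose at 0 of 5 and fell at 3. Over all 9001 listed sites 22.8% rose and 32.6% fell. None of these marker sites was a shared site.

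Gene strand was given for 307 of the 353 genes, which let 196 of the 248 sites be classed. Head-to-head sites, near the starts of both genes, were the most frequent, with 121 sites (61.7% of those classed), and at 118 of them the genes lay on opposite strands. The class with a start and a far end in reach (head-to-tail) held 57 sites, the class with far ends only (tail-to-tail) held 18, and 52 sites had a gene without strand. The ends in question lay a median of 171 bp apart at head-to-head sites, 799 bp at head-to-tail sites and 785.5 bp at tail-to-tail sites.

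The DNA between head-to-head genes was read only where the gap between the annotated genes was 20 to 300 bp. RefSeq promoter sequence also had to cover the gap in full, which left 31 of the 84 head-to-head gene sets. These gaps were 21 to 233 bp long (median 72 bp) with a GC content of 47.8% to 84.8% (median 64.1%). A GC box, searched as GGGCGG on both strands with overlapping copies counted apart, was present in 15 of the 31 gaps (48.4%), and 9 held 2 or more. The gaps of 5 pairs whose sites rose are shown first, from RefSeq assembly GRCm38.p6 (mm10), forward strand, with GC boxes in capitals, because they show how different the DNA at rising pairs was.
Atg4b/Thap4 (chr1:93754839-93754904): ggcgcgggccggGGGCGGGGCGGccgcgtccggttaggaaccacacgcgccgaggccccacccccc
Cnst/Tfb2m (chr1:179546306-179546443): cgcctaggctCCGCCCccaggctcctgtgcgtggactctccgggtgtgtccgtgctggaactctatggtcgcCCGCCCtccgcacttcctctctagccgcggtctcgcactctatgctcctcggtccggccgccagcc
Ccdc157/Sf3a1 (chr11:4160294-4160353): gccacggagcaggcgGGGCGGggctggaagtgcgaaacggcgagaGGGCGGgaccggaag
Mitd1/Mrpl30 (chr1:37890450-37890476): aaacctttcccggaaccaaagaaccgt
Ccdc115/Imp4 (chr1:34439673-34439828): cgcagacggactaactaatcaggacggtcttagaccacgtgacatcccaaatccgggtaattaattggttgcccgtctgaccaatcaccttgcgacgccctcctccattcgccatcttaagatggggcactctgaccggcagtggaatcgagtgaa
The gaps at Atg4b/Thap4, Cnst/Tfb2m and Ccdc157/Sf3a1 hold 2 GC boxes each. Those at Mitd1/Mrpl30 and Ccdc115/Imp4 hold none.

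The next gaps are shown as a contrast. Ccdc59/Mettl25 is the pair with sites called in opposite directions, and Ro60/Uchl5 has one of the highest signals. Pask/Ppp1r7 has one of the smallest changes among sites that were not called. That Pask/Ppp1r7 site, at -0.0061, does not cover the gap. The site of this pair that does cover it had a log2 fold change of -0.060 and was not called either.
Ccdc59/Mettl25 (chr10:105841381-105841478): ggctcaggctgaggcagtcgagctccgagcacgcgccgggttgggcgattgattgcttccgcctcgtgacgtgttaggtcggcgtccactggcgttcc
Ro60/Uchl5 (chr1:143777064-143777233): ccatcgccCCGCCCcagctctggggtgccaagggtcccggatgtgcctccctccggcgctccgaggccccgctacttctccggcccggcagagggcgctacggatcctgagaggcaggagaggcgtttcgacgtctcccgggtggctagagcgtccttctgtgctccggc
Pask/Ppp1r7 (chr1:93343523-93343609): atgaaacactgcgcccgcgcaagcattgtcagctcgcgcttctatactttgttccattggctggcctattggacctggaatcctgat
Ro60/Uchl5 has 1 GC box in its gap and the others have none. A gap without a GC box says only that these letters are not in that window.

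Of the 248 shared sites, 57 (23.0%) rose and 25 (10.1%) fell in NPC by the authors' deposited table, and 166 were not called. Among all 9001 listed sites 55.4% were called, with 22.8% rising and 32.6% falling. The share of shared sites that rose was thus near that of all sites, and the share that fell was below it. The median log2 fold change was 0.21 at shared sites and -0.29 over all sites, and 69.4% of shared sites had a positive value. Centring the fold changes on the median of all sites shifts them by 0.29 and needed p-values computed anew from fold change and SE. It gave 78 rises and 16 falls, against 44 and 23 for uncentred values with p computed in that same way.

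Called changes at shared sites were smaller than over all listed sites and closer to those near 1 gene. The median rise was 0.98 on the log2 scale (1.97-fold) and the median fall was -1.69 (3.22-fold lower), against 3.03 and -3.24 over all called sites and 1.13 and -2.65 at single-gene sites per the authors' deposited table. Within the top quartile by signal the median rise was 0.87 at shared and 0.98 at single-gene sites, and both median falls were -1.67. A log2 change beyond 1 was reached by 25 rises (10.1% of shared sites, against 20.3% of all sites) and 22 falls (8.87%, against 32.1%). Rises ran from 0.42 to 3.42 and falls from 0.69 to 5.25 in size. Sites that rose had a median signal of 26.2, above the 13.0 of sites that fell, and 19.5 was the median of sites that were not called.

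**Figure D1:**
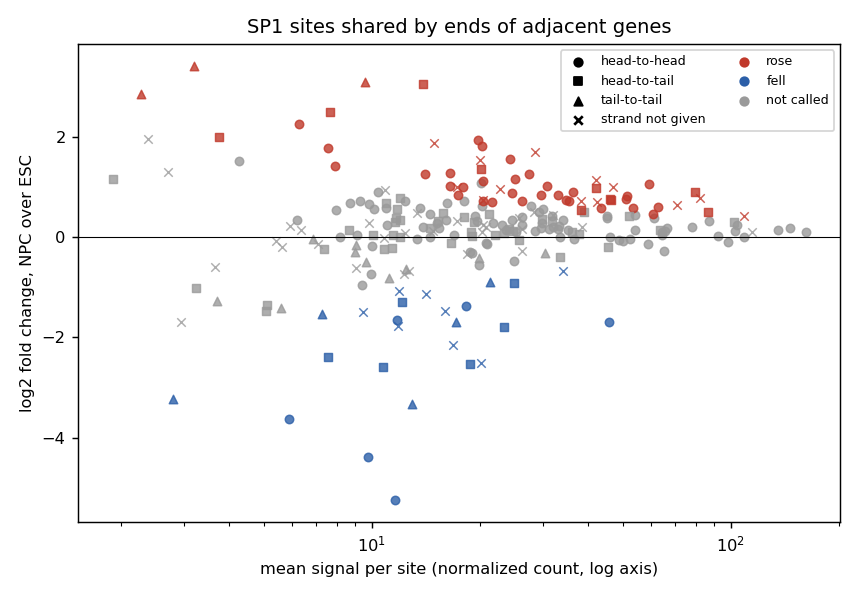
Each point is 1 of the 248 shared sites, with the mean signal per the authors' deposited table (normalized count, log axis) on the horizontal axis and the log2 fold change, NPC over ESC, on the vertical axis. Marker shape gives the orientation of the genes and colour the call. The 57 rises sit mostly at high signal, with a median of 26.2, and the 25 falls lower, with a median of 13.0.

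Shared sites were compared with sites near 1 gene only. Both classes rose about equally often, at 23.0% of shared sites (95% Wilson interval 18.2% to 28.6%) and 23.8% of single-gene sites (21.8% to 26.0%). Falls made up a lower share at shared sites, at 10.1% (6.92% to 14.5%) against 20.9% (19.0% to 23.0%). These intervals cover counting error over sites, which share genes and are not replicates, and no test was made over sites. Sites with no gene end within 2000 bp, 7161 in number, rose at 22.6% and fell at 36.0%.

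Signal differed between the classes and moved with this contrast. The median signal was 20.1 at shared sites, 14.7 at single-gene sites and 5.78 over all sites, and 75.8% of shared sites against 59.4% of single-gene sites lay in the top quartile of all sites, above 11.4. Within that quartile the classes were close: 9.57% of 188 shared sites and 11.3% of 945 single-gene sites fell, 26.1% and 30.2% rose, and both medians were 0.26. In the next quartile down, 14.0% of 43 shared sites fell against 29.2% of 383 single-gene sites. The lower quartiles hold 8 and 9 shared sites, too few to compare.

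The contrast in falls was also seen within bins of distance to the nearest gene end. Within 250 bp, 6.47% of 139 shared sites and 15.2% of 710 single-gene sites fell. From 250 to 500 bp the shares were 13.0% of 46 and 18.0% of 255, and from 500 to 1000 bp they were 16.3% of 43 and 21.5% of 288. From 1000 to 2000 bp they were 15.0% of 20 and 34.5% of 339. In each of these bins the share of falls was lower at shared sites, and in the single-gene class falls became more frequent with each step away from the gene end.

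Orientation separated the shared sites further. Of 121 head-to-head sites 31 rose (25.6%) and 6 fell (4.96%), with a median log2 fold change of 0.33 and a median signal of 24.9. Of 57 head-to-tail sites 10 rose (17.5%) and 6 fell (10.5%), with a median of 0.15 and a signal of 18.7. Of 18 tail-to-tail sites 3 rose (16.7%) and 5 fell (27.8%), with a median of -0.58 and a signal of 9.29, and 3 of the 18 had a positive value. Of 52 sites with a gene lacking strand 13 rose and 8 fell (15.4%), with a median of 0.18.

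Sites near 1 gene were split in the same way. Single-gene sites near a start (1099 sites) rose at 24.6% and fell at 17.5%, with a median of 0.19, and those near a far end (211 sites) rose at 19.4% and fell at 35.1%, with a median of -0.44. Their median signals were 17.9 and 5.99. Within each signal quartile the share that rose was instead lower near starts than near far ends, for example 29.9% of 748 against 32.6% of 43 in the top quartile. The shares that fell were 10.6% and 20.9% in the top quartile, and they lay within 5 percentage points of each other in the other quartiles.

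Falls made up a lower share of head-to-head sites, at 4.96% (95% Wilson interval 2.29% to 10.4%), than at single starts, at 17.5% (15.3% to 19.8%). Restricting both to the top quartile by signal left 3.96% of 101 head-to-head sites and 10.6% of 748 single-start sites falling. With a midpoint also within 250 bp of a start, 2.74% of 73 head-to-head sites (2 sites) and 9.38% of 448 single-start sites fell, while 27.4% and 31.2% rose.

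**Figure D2:**
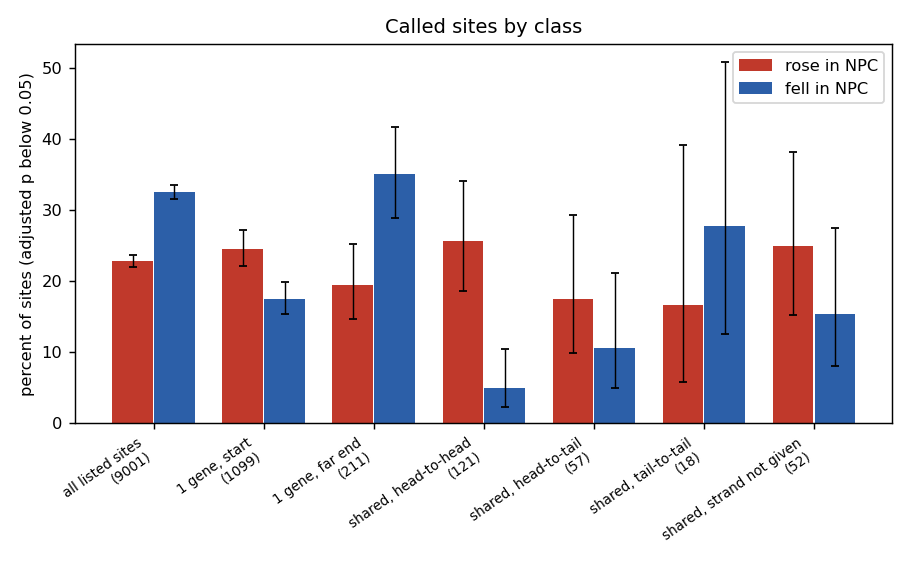
Bars give the percent of sites in each class called as rising or falling in NPC (adjusted p-value below 0.05), with 95% Wilson intervals over sites and the number of sites in parentheses. Head-to-head sites have the lowest share of falls, at 4.96%, and single far ends and tail-to-tail sites have more falls than rises.

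The share of falls at head-to-head sites was highest far from the starts. Within 250 bp of the nearest start 20 of 77 head-to-head sites rose and 2 fell, from 250 to 500 bp 5 of 21 rose and 1 fell, and from 500 to 1000 bp 6 of 17 rose and none fell. From 1000 to 2000 bp none of 6 rose and 3 fell. Head-to-head sites whose midpoint lay between the starts rose at 15 of 42 (35.7%), and those with the midpoint outside at 16 of 79 (20.3%), while 3 fell in each group. Median signals in these groups were 29.3 and 23.1.

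**Figure D3:**
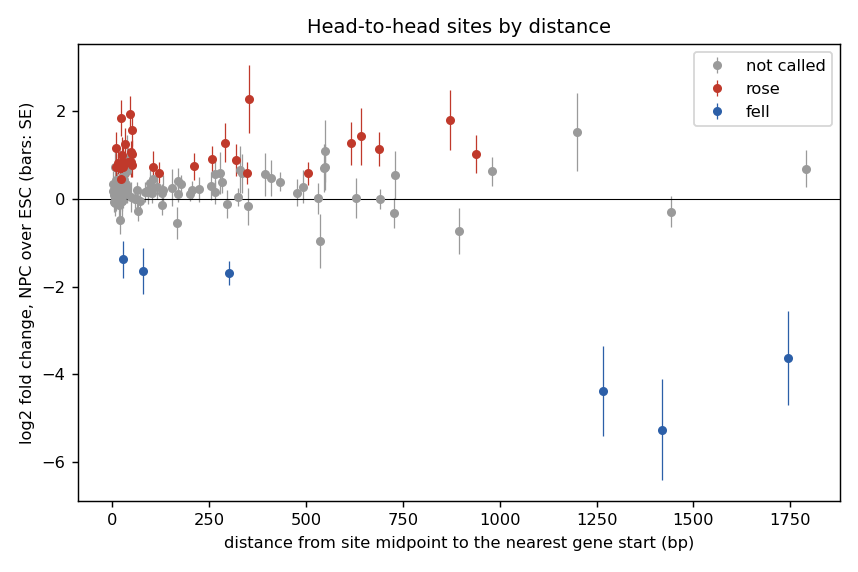
Each point is a head-to-head site, with the distance from its midpoint to the nearer gene start in bp on the horizontal axis and its log2 fold change, NPC over ESC, with the SE from the authors' deposited table on the vertical axis. Rises spread from 0 to 1000 bp, and the falls of largest size lie beyond 1000 bp.

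Sites were also grouped by the gap between the genes. Among shared sites at gaps of up to 500 bp 19 of 86 rose and 3 fell, with a median of 0.27. At gaps above 500 and up to 1000 bp 5 of 26 rose and 3 fell, and at wider gaps 11 of 40 rose and 6 fell. Where the annotated genes overlapped, 22 of 96 sites rose and 13 fell. Gap width went together with orientation. Head-to-head sites made up 61 of the 86 at gaps of up to 500 bp (17 rose and 1 fell) and 1 of the 40 at gaps above 1000 bp. At overlapping genes 56 sites were head-to-head, of which 12 rose and 3 fell.

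The head-to-head rises with the smallest adjusted p-values included sites near genes of RNA splicing, of mitochondria and of replication fork repair. Mitochondrial genes also lay at head-to-head falls, and over all shared sites other mitochondrial proteins had 6 rises and 4 falls at 14 sites. Genes of RNA processing and transcription rose at 2 of 10 shared sites and a wider splicing list at 6 of 12, against 23.0% of all shared sites. Ewsr1, which codes for an RNA-binding protein of the FET family, shares a start region with Rhbdd3, of the rhomboid family. Its site at chr11:5098811-5099311, with a midpoint 46 bp from the Ewsr1 start, rose by 1.93 ± 0.41 (log2, SE) per the authors' deposited table, with a DESeq2 adjusted p of 2.014e-05. A second Ewsr1/Rhbdd3 site rose by 1.01 ± 0.43, and a further one, at 1.08 ± 0.70, was not called. All values at this pair were positive, but the second and the further site overlap and so share reads.

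Tfb2m codes for a mitochondrial transcription factor and lies back to back with Cnst. The Cnst/Tfb2m site covers the 138-bp gap printed above, had a signal of 59.1 and rose by 1.06 ± 0.24 (adjusted p 3.778e-05) per the authors' deposited table. Mrpl30, a protein of the large mitochondrial ribosomal subunit, lies 27 bp from Mitd1, which acts in the last step of cell division. The Mitd1/Mrpl30 site rose by 1.25 ± 0.35 per the authors' deposited table, with a signal of 27.4.

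Smarcal1, an annealing helicase that acts at stalled replication forks, and Marchf4, a membrane ubiquitin ligase, had 2 sites. In the authors' deposited table the Marchf4/Smarcal1 sites rose by 1.82 ± 0.41 (adjusted p 4.589e-05) and 2.26 ± 0.78, with signals of 20.3 and 6.27. Atg4b, a protease that processes autophagy proteins, shares a 66-bp gap with Thap4, and the Atg4b/Thap4 site rose by 1.56 ± 0.36 (adjusted p 7.115e-05) per the authors' deposited table.

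Several rising pairs included a splicing gene. Sf3a1, a spliceosome subunit, lies 60 bp from Ccdc157, and the Ccdc157/Sf3a1 site rose by 1.15 ± 0.36 per the authors' deposited table. Cdc40, which acts in the second step of splicing, lies 336 bp from Wasf1, an actin regulator of the WAVE family. Both Cdc40/Wasf1 sites rose, by 0.81 ± 0.26 and 0.87 ± 0.36 per the authors' deposited table. The Septin10/Sowahc site, near a septin gene, rose by 1.02 ± 0.32 there.

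The 6 head-to-head falls included sites near the mitochondrial genes Chchd10, Maip1 and Cisd1. Pawr codes for a pro-apoptotic protein, and the Gm40755/Pawr site at chr10:108331638-108332138, 301 bp from the Pawr start, fell by 1.69 ± 0.28 per the authors' deposited table (adjusted p 5.753e-08, signal 45.7). Its signal was the highest among the 25 falls. The other Gm40755/Pawr site, at 0.55 ± 0.49, was not called. Chchd10, a protein of the mitochondrial intermembrane space, shares a site with Mmp11, a matrix metalloproteinase, and the Chchd10/Mmp11 site fell by 1.65 ± 0.53 per the authors' deposited table. The Maip1/Tyw5 site, near genes for a mitochondrial protease partner and a tRNA-modifying enzyme, fell by 1.38 ± 0.42 there.

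The remaining head-to-head falls lay more than 1000 bp from either start. The site at Cisd1, a mitochondrial outer-membrane iron-sulfur protein, and Ipmk, an inositol phosphate kinase, lies 1418 bp from the Ipmk start. This Cisd1/Ipmk site fell by 5.25 ± 1.15 per the authors' deposited table, with a signal of 11.6. A Glb1l/Stk16 site, 1745 bp from the Stk16 start, fell by 3.63 ± 1.07 per the authors' deposited table, while the other site of that pair, at -0.04 ± 0.38, was not called.

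Ccdc59/Mettl25 was the only gene set with sites called in opposite directions. Its site over the 98-bp gap printed above had a signal of 60.6 and rose by 0.45 ± 0.22 per the authors' deposited table (adjusted p 0.0487). The Ccdc59/Mettl25 site 1267 bp from the nearer start had a signal of 9.78 and fell by 4.38 ± 1.02 there. A further site of the pair, at 0.03 ± 0.21, was not called.

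Head-to-tail sites showed both directions. The largest head-to-tail rises were at Rdh5, a retinol dehydrogenase, and Bloc1s1, a subunit of a complex in lysosome-related organelle biogenesis. Both Bloc1s1/Rdh5 sites rose, by 3.05 ± 0.58 (adjusted p 1.484e-06) and 2.50 ± 0.72 per the authors' deposited table. The Nipsnap1/Thoc5 site, 26 bp from the start of Thoc5, a subunit of the THO mRNA export complex, rose by 1.35 ± 0.42 in that deposited table. Sites of high signal rose less: Cactin/Pip5k1c, near a splicing factor gene, had a signal of 79.5 and rose by 0.90 ± 0.22, and Ncln/S1pr4 rose by 0.98 ± 0.28.

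Head-to-tail falls included cytoskeletal and developmental genes. The A630095N17Rik/Tuba4a site, 1940 bp from the start of an alpha-tubulin gene, fell by 2.53 ± 0.45 per the authors' deposited table (adjusted p 3.998e-07). The Igsf9/Tagln2 site, 388 bp from the start of Tagln2, an actin-binding protein, fell by 1.79 ± 0.38 in that table. Cfc1, an EGF-CFC co-receptor for Nodal, shares a site with Prss40, and the Cfc1/Prss40 site fell by 2.38 ± 0.70 there. The F5/Selp site, 27 bp from the start of F5 (coagulation factor V) and near the far end of Selp (P-selectin), fell by 2.60 ± 0.62 per the authors' deposited table.

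Tail-to-tail sites held some of the largest changes, on low signals. The Agap2/Os9 site, near an Arf GTPase-activating protein gene of brain and a gene of endoplasmic reticulum quality control, rose by 3.09 ± 0.70 per the authors' deposited table, with a signal of 9.56. The Iars2/Rab3gap2 and Ccn6/Tube1 sites rose by 3.42 ± 1.32 and 2.84 ± 1.47 there, on signals of 3.19 and 2.28. The 95% interval of the Ccn6/Tube1 value from its SE, -0.04 to 5.73, includes 0, as did that of 4 called shared sites in all, so these calls rest on the deposited p-value alone. The Chchd10/Gm867 site fell by 3.32 ± 0.64 (adjusted p 2.503e-06, signal 13.0) per the authors' deposited table. Chchd10 thus lay at a falling site at each end, since its start is the one shared with Mmp11.

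Other tail-to-tail falls lay at Dnajb2/Ptprn, near genes for a co-chaperone and a dense-core vesicle protein, and at Cd63/Rdh5, near a tetraspanin gene. In the authors' deposited table they fell by 1.69 ± 0.43 and 0.90 ± 0.39. Rdh5 was therefore near rising sites at its start and a falling site at its far end.

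Where a gene had no strand, the pair could not be oriented. All 4 sites of Rdh10, which makes retinaldehyde for retinoic acid synthesis, and Rpl7, a ribosomal protein, rose per the authors' deposited table, by 0.96 to 1.88, with 1.69 ± 0.34 (adjusted p 4.758e-06) at the site of smallest p. The Hes6/Per2 site, 211 bp from the start of Hes6, a neurogenic helix-loop-helix factor, rose by 1.53 ± 0.39 there. Smaller rises at high signal were those of Apoa2/Tomm40l (0.78 ± 0.22, signal 82.4) and Izumo4/Mob3a (0.65 ± 0.23, signal 71.0) in that table.

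Falls among these sites were led by Ikzf4/Suox, near genes for an Ikaros-family zinc finger and sulfite oxidase, at -2.52 ± 0.45 (adjusted p 4.887e-07) per the authors' deposited table. Alx1, a homeobox gene of craniofacial mesenchyme, and Gm34298 shared 3 sites, and all fell, with values of -2.15 ± 0.45, -1.47 ± 0.44 and -1.49 ± 0.58 there. The Fstl3/Prss57 site, near an activin-binding protein gene, fell by 1.77 ± 0.53 and the Ap1b1/Nefh site, near a neurofilament gene, by 1.13 ± 0.47 in that deposited table.

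**Figure D4:**
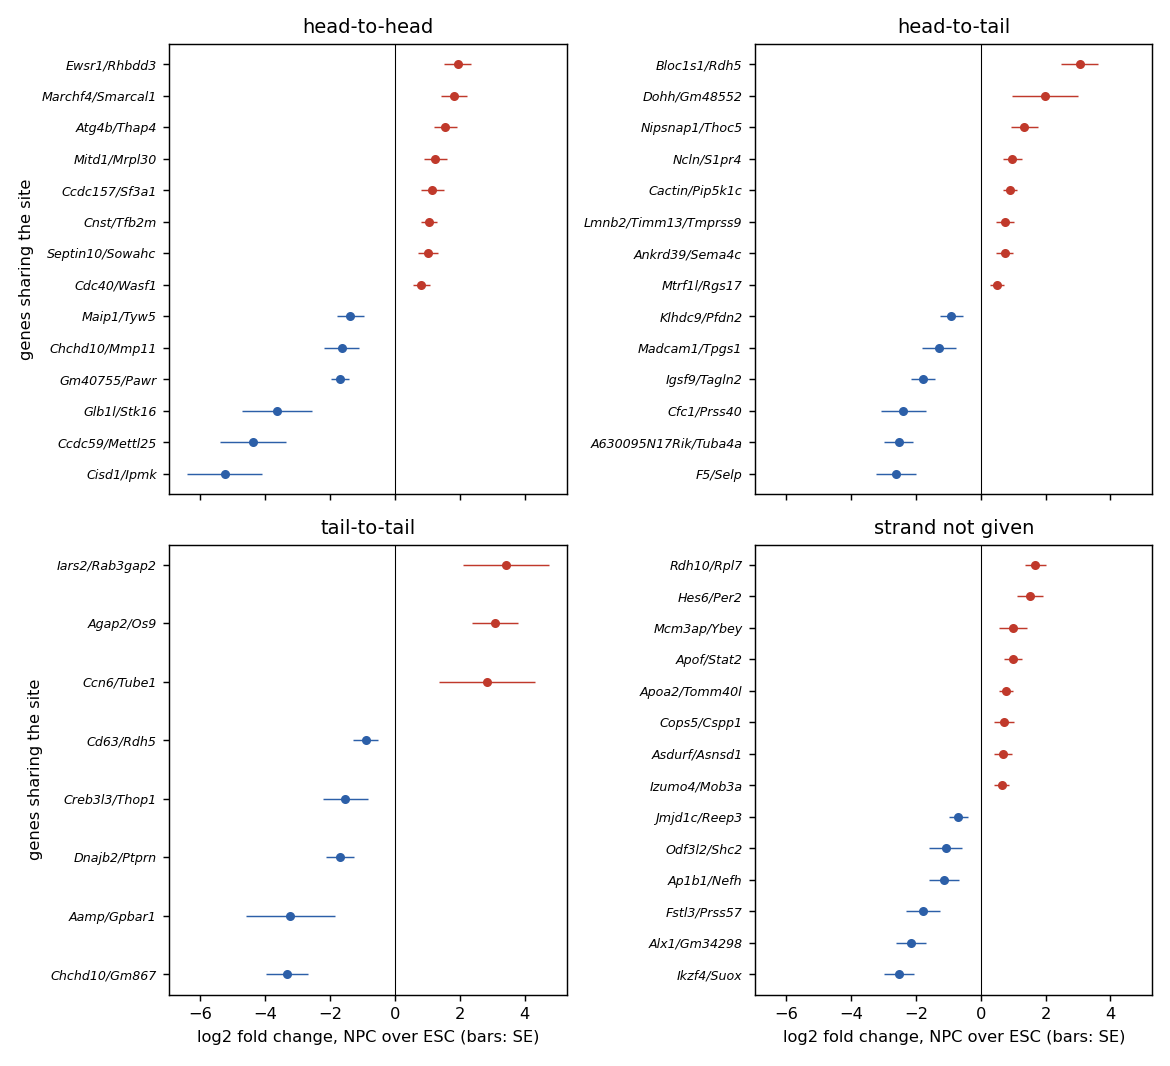
Points give the log2 fold change, NPC over ESC, with its SE from the authors' deposited table, for up to 8 rises and up to 8 falls of smallest adjusted p-value in each orientation, 1 site per set of genes. Head-to-head rises lie between 0.81 and 1.93, and the head-to-head falls reach 5.25 in size at Cisd1/Ipmk.

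Gene pairs with several sites mostly had values of 1 sign. Of the 184 gene sets 52 had 2 or more sites (116 sites, at most 4 a set), and in 37 of the 52 all values had the same sign. No site was called in 29 sets, all sites rose in 8, all fell in 1, and some but not all were called in 9 rising and 4 falling sets. Neighbouring shared sites overlapped in 35 cases and so share reads. The sites at Cep57l1/Sesn1, Ccdc115/Imp4 and Plcd4/Usp37, given next, overlap in this way, so their like values are not independent. Neighbouring sites at Cdc40/Wasf1 and Alx1/Gm34298, named above, overlap too, as do some at Rdh10/Rpl7, Ewsr1/Rhbdd3 and Ccdc59/Mettl25. At Cep57l1/Sesn1, which includes a stress-induced gene of the sestrin family, the sites rose by 0.72 and 0.73 per the authors' deposited table. At Ccdc115/Imp4, which includes a ribosome assembly factor, they rose by 0.90 ± 0.30 and 0.83 ± 0.32 there. Plcd4/Usp37, with a deubiquitinating enzyme gene, rose by 1.41 and 1.78 in that table.

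**Figure D5:**
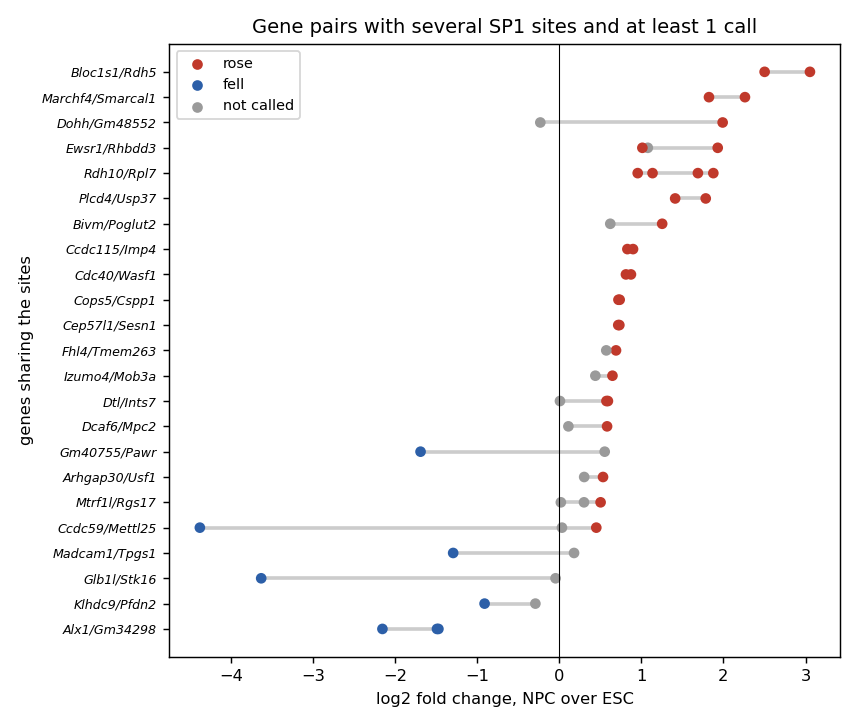
Each row is a gene set with 2 or more SP1 sites and at least 1 call, and points give the log2 fold change, NPC over ESC, of every site per the authors' deposited table, coloured by call. Ccdc59/Mettl25 spans the widest range, from -4.38 to 0.45, and the 4 sites of Rdh10/Rpl7 all lie above 0.9.

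By function, the lists of widely expressed genes held few calls each. Mitochondrial genes chosen by symbol (12 genes, 16 sites) had 4 rises and no fall, with a median of 0.34, and translation genes (6 genes, 16 sites) had 5 rises and no fall, with a median of 0.35. The 4 Rdh10/Rpl7 sites were among these 5 translation rises. Genes of RNA processing and transcription (10 sites) had 2 rises, cell cycle genes (6 sites) 3, ubiquitin genes (4 sites) 2 and chromatin genes (3 sites) 2, all with no fall. All the RNA processing rises lay at Dtl/Ints7, all the ubiquitin rises at Plcd4/Usp37 and all the chromatin rises at Marchf4/Smarcal1. The cell cycle rises included 2 at Cep57l1/Sesn1. Membrane traffic genes (7 sites) had 2 rises and 1 fall. The Timeless sites (3) and the Klf16 site (1), the only ones of the DNA replication and zinc finger lists, were not called. Among all shared sites, for comparison, the median was 0.21, 23.0% rose and 10.1% fell, against -0.29, 22.8% and 32.6% over all listed sites. The rises at mitochondrial, translation and RNA processing genes were near that share.

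Wider lists were drawn up after the names of the genes were known and are given as counts only, to be read against the 23.0% of shared sites that rose and the 10.1% that fell (22.8% and 32.6% of all sites). Genes of mRNA splicing, export and decay (10 genes, 12 sites) had 6 rises and no fall, with a median of 0.82, and DNA repair genes (8 genes, 13 sites) had 4 rises and no fall, with a median of 0.37. The splicing rises included 2 at Cdc40/Wasf1, and the DNA repair rises all lay at Marchf4/Smarcal1 and Dtl/Ints7. Ribosome assembly and tRNA modification genes (17 sites) had 3 rises and 1 fall. Other mitochondrial proteins (11 genes, 14 sites) were split, with 6 rises and 4 falls. Among genes of restricted tissues, neural genes had 4 rises and 3 falls at 12 sites, blood, liver and immune genes 4 rises and 5 falls at 15 sites, and sperm genes 2 rises and 2 falls at 10 sites. A site was counted for each gene it lay near, so that it need not act on the gene named.

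The sites of highest signal changed little. Fam72a/Srgap2 had a signal of 162 and a log2 fold change of 0.10 ± 0.16 per the authors' deposited table, and 1700056E22Rik/Dusp10 had 146 and 0.19 ± 0.18. Odr4/Tpr, with a nuclear pore basket gene, had 135 and 0.13 ± 0.19 there, and Ro60/Uchl5, whose gap is printed above, had 109 and -0.0071 ± 0.21. Cdk2/Pmel/Rab5b, near ends of 3 genes, had 115 and 0.10 ± 0.18 per the authors' deposited table. None of these was called, whereas Cep170/Sdccag8, with centrosomal genes, had a signal of 109 and rose by 0.42 ± 0.20 there.

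Of the 166 sites that were not called, 90 had a 95% interval (from its SE) inside a log2 change of 1 in both directions, so that a change of more than 2-fold lay outside it. The other 76 had an interval that reached beyond 1, so that a change of that size lay within the interval. Among the sites nearest 0 were Copa/Ncstn, with a coatomer gene and a gamma-secretase gene, at 0.00028 ± 0.27, and Pask/Ppp1r7 at -0.0061 ± 0.23, with signals of 33.5 and 46.0 per the authors' deposited table.

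Promoter sequence was not used to sort sites into shared and single-gene classes. All of them are SP1 sites, however, and SP1 targets the GC box. Their GC-box shares beside that of all windows are thus not independent of the site list. RefSeq windows of 300 bases (250 before to 50 after the start) numbered 272 at shared sites, 197 of them at head-to-head sites. Single-gene sites had 882 windows, and there were 21263 protein-coding windows in all. A gene can have more than 1 window, and each window was counted. A GC box (GGGCGG, both strands) stood in 58.5% of shared-site windows, 60.4% of head-to-head windows, 65.5% of single-gene windows and 46.2% of all windows. A TATA box (TATAAA, both strands) stood in 4.41%, 2.54%, 7.48% and 12.6% of them in that order.

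The ETS-type motif (CCGGAAG, both strands) stood in 20.6% of shared-site, 20.3% of head-to-head, 13.9% of single-gene and 11.6% of all windows. The CCAAT box (CCAAT, both strands) stood in 44.1%, 45.2%, 35.4% and 38.2%, and the NRF1-type motif in 12.1%, 14.2%, 9.52% and 6.38%. Windows of close head-to-head genes overlap and so can count 1 match for both genes. The median GC content was 61.7% in shared-site and in single-gene windows, 62.7% in head-to-head windows and 56.3% in all windows. Among head-to-head windows the GC box stood in 54.0% of 50 at rising sites, 6 of 12 at falling sites and 58.6% of 157 at sites not called. A window near sites with different calls was counted under each call. At the pairs of the 31 gaps read in full, sites with a GC box in the gap numbered 18, of which 5 rose and none fell. Their median log2 fold change was 0.50 and their median signal 23.0. Sites at pairs without one numbered 24, of which 6 rose and 1 fell, with medians of 0.26 and 32.5. Only 25 of these 42 sites cover the gap that was read, and the site that fell, at Ccdc59/Mettl25, does not.

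The limit of 2000 bp cut through a continuum. The 5 sites just inside it, with the second gene end 1956 to 1974 bp away, had values from -1.69 (Dnajb2/Ptprn, which fell) to 0.47 per the authors' deposited table. The 5 just outside, at 2008 to 2067 bp, had values from -0.82 to 1.10, with 1 rise, at Cops5/Cspp1 (0.77 ± 0.29).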

How the data were processed

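ATAC-seq libraries of ESC (3) and NPC (3) were compared by the authors, and this account starts from 1 deposited table of that comparison. Per the submitters' processing notes, the genome build was mm10 and the tools included BWA 2.1, Picard 2.23.8, MACS2 2.2.7, SAMtools 1.9 and DESeq2. Their settings, how the SP1 sites were chosen, and any shift of reads for Tn5 stand in none of the sources used here, and each could change the values per site. Per the file headers, the deposited columns are a mean signal (the normalized count averaged over libraries), a log2 fold change with its SE, a p-value and an adjusted p-value. NPC over ESC was read from the table's name, and no column states it. A p-value computed anew from the ratio of fold change to SE was never below the deposited p-value at any of the 9001 sites (median ratio 2.35). Because the labels name no separate cultures, p-values may measure technical spread only. The table held 0 columns of values per library, so depth is unknown.

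Gene ends came from RefSeq GRCm38.p6 gene positions, and strand from RefSeq promoter windows of the same assembly. Pairs were classed by the ends nearest the site midpoint of the 2 nearest genes. Classes are set side by side as counts, percents with 95% Wilson intervals, and medians, with no test over sites. Site coordinates are as listed, with no statement of whether counting starts at 0 or 1. Named sites were, in each orientation, up to 8 rises and up to 8 falls of smallest adjusted p (1 per gene set), the 6 of highest signal, the 4 uncalled ones nearest 0, up to 4 per gene list, and sets called in opposite directions. Cep57l1/Sesn1, Ccdc115/Imp4 and Plcd4/Usp37, the printed gaps and the second sites of named pairs were picked after their values were seen. 1 gene of the marker lists is not reported here and its sites were left out of the marker counts. The members and lists were chosen with earlier results of these data known. Scripts used Python 3.11.15, pandas 2.3.3, NumPy 2.4.6 and SciPy 1.17.1, and were tested on simulated data. The alternatives tried are in the closing section.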

Additional observations from a re-analysis of the deposited data

How the results depend on the processing

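Against 57 rises, 25 falls and a median log2 fold change of 0.21 at shared sites, a window of 500 bp gave 26 rises and 3 falls, 1000 bp gave 10 falls, and 5000 bp gave 100 rises, 90 falls and a median of 0.12. An adjusted p below 0.01 left 33 rises, and a log2 change above 1 left 25. With p recomputed from the fold change and its SE, 44 rises and 23 falls were called. Centring on all sites, with p recomputed in the same way, gave 16 falls and a median of 0.50. The ends of all RefSeq genes gave 137 rises and 96 falls, and starts only gave 31 rises, 6 falls and a median of 0.32. Leaving out chromosome 1 gave 29 rises and 16 falls, and leaving out chromosome 10 gave 34 and 10. Windows, gene sets and chromosomes change the number of sites counted.

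The share falling was lower at shared than at single-gene sites under all 19 alternatives, with a difference of -10.8 percentage points as reported, -14.8 without chromosome 10 and -1.75 within the top quartile by signal, where the median differed by 0.0027. The top-quartile comparison and a head-to-head class limited to opposite strands were chosen after seeing the data. The difference in rises between these classes ranged from -5.23 to 2.18 points. Against other oriented pairs, the share of head-to-head sites rising was higher by 1.22 to 18.8 points and the difference in the share falling was -19.2 to -1.68 points under all 18 alternatives that gave a value. These alternatives reuse the same data. As reported, the difference in rises was 8.29 points, with a 95% interval over sites (-3.97 to 19.2) that includes 0. For falls it was -9.71 points (-19.8 to -1.40), and -4.37 (-13.5 to 2.84) at an adjusted p below 0.01. These intervals count each site as independent, although sites share genes and some overlap. They are likely too narrow and are not a test. Starts only leaves no other pairs and gave no such difference.

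No paired analysis was possible because the table holds no values per library, and leaving out 1 library at a time was not run for the same reason.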
